A study of Mus musculus with 66 samples.

Results

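Dense clusters of Nr5a2 peaks are stretches of the mouse genome where the authors' list of Nr5a2 binding sites holds several peaks close together. The list was sorted by position, neighbouring peaks were joined into a chain when the start of one lay at most 5000 bp after the end of the previous one, and chains of at least 3 peaks were kept. Of 35266 peaks, 5255 (14.9%) lay in 1454 such chains, 22587 stood alone and 7424 lay in runs of 2. The rule used positions only, so neither the class label of a peak nor any RNA value entered the choice.

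The study asked where Nr5a2 binds in mitotic mouse embryonic stem (ES) cells, and what is transcribed after mitosis when Esrrb and Nr5a2 are removed. The 12 ChIP-seq libraries came from wild-type E14Tg2a ES cells of the 129/Ola genotype, with 3 Nr5a2 and 3 input libraries each from interphase and mitotic cells. The 54 RNA-seq libraries came from 1 derivative of that line, also 129/Ola, in which both receptors can be degraded on addition of auxin, a plant hormone that triggers the removal of tagged proteins. They cover 9 stages, namely asynchronous (cycling) cells, mitotic arrest, and 7 points of the following release (every 10 minutes from 20 to 60, then 90 and 120 minutes), each without and with auxin and with 3 libraries per group. The treatment label reads control for every RNA library, so the auxin arm was taken from the titles. Every RNA comparison is within that single line, and no group received auxin without degradable receptors, so auxin itself, loss of Esrrb and loss of Nr5a2 cannot be told apart. The RNA table holds 1 mean per group in TPM, a unit of RNA abundance scaled to transcript length and to the total of a library, so no spread between libraries could be computed, no test of a gene was made, and the depth of each library is unknown. In bulk samples fewer cells and less RNA per cell cannot be told apart.

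Nr5a2 is an orphan nuclear receptor that binds DNA as a monomer, at a core of the AAGGTCA kind preceded by the bases TC, and Esrrb, a receptor of another subfamily, recognises nearly the same letters. Both belong to the transcription factor network that keeps mouse ES cells in the naive state, and both are known to stay on part of their sites in mitosis, which is called bookmarking. Genes that define a cell type often carry several binding sites of such factors in a row, within and around the transcription unit.

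The chain with most peaks covered the miR-290 to miR-295 locus, which encodes the main miRNA cluster of mouse ES cells. Its mature products are shown because 8 of the 28 miRNA hairpins of the RefSeq hairpin table (1005 in all) that lay inside any chain were in this one. RefSeq lists 9 miRNA genes there, and the other gene is Mir291a, whose mature sequences are in the table. The sequences are those of RefSeq on GRCm38.p6, written 5′ to 3′, and the capitals mark the seed, bases 2 to 8, which pairs with target RNAs.
mmu-miR-291a-3p: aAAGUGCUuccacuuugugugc
mmu-miR-294-3p: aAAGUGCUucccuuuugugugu
mmu-miR-295-3p: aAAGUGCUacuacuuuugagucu
mmu-miR-291b-3p: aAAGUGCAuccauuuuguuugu
mmu-miR-290a-3p: aAAGUGCCgccuaguuuuaagccc
mmu-miR-290a-5p: aCUCAAACuaugggggcacuuu
mmu-miR-292a-5p: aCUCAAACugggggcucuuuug
mmu-miR-293-5p: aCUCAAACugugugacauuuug
miR-291a-3p, miR-294-3p and miR-295-3p shared the seed AAGUGCU, which 5 of the 1679 mature miRNAs of the table have. The seeds of miR-291b-3p and miR-290a-3p had the same first 6 letters, AAGUGC, and another last letter. The arms miR-290a-5p, miR-292a-5p and miR-293-5p shared CUCAAAC, a seed that no other mature miRNA of the table has.

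A second set of sequences shows promoters that a peak of a chain overlaps, wholly or in part. There were 12 named genes with such a promoter. For 4 of them the 250 bases before an annotated start are printed, because their windows hold letters of the receptor motif. The sequences are from RefSeq on GRCm38.p6, 5′ to 3′ on the strand of the gene. C77080 and Elovl6 come from the 6 named genes whose promoter lies in the largest chains, and the other 4 of those (Mkrn1, Midn, Tfcp2l1 and Nr5a2) held none of the letters searched before the start. Pou5f1 and Sgk1 were chosen after their letters had been read. Muc1, with TCAAGG 222 bases before its start, is not printed. Zfp57, which held AAGGTCA on the other strand and only after the start, is not printed either. Igfbp2 and Nr0b1 held none of the letters searched. Capitals mark the motif TCAAGG, the motif AAGGTCA or the motif AAGGCCA on either strand, and matches that overlap are marked as 1 run.
Elovl6 (chr3:129532136-129532385, plus strand): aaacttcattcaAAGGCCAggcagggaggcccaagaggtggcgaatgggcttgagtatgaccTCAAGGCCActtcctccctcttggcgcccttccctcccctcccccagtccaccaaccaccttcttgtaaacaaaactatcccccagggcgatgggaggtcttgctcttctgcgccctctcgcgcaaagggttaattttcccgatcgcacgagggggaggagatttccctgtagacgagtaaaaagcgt
C77080 (chr4:129239219-129239468, minus strand): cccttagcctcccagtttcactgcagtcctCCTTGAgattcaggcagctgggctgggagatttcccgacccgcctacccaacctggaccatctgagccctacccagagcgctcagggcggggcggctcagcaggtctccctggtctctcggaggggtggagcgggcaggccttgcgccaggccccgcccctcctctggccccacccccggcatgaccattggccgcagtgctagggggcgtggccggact
Pou5f1 (chr17:35505782-35506031, plus strand): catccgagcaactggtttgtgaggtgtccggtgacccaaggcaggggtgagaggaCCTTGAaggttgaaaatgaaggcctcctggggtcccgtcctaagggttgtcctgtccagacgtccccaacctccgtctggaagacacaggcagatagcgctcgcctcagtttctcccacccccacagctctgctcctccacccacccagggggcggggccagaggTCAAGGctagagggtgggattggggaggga
Sgk1 (chr10:21978422-21978671, plus strand): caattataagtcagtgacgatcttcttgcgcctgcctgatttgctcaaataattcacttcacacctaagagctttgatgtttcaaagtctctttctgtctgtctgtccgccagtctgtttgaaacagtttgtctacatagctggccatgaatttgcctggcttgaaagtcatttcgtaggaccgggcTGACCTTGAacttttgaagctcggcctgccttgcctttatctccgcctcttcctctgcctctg
Elovl6 held TCAAGGCCA 188 bases before its start, and Sgk1 held TGACCTTGA, the same kind of site read on the other strand (TCAAGGTCA), 63 bases before the start shown. That start is 1 of 6 with a window for Sgk1 and lies inside the span of the gene, downstream of its first start. Pou5f1 held TCAAGG 30 bases before its start and its reverse complement CCTTGA 195 bases before, and C77080 held CCTTGA 220 bases before the start shown, which is 1 of 4 and likewise inside the span of the gene. The chain peak at C77080 (chr4:129239458-129240090) covered only the upstream end of the printed stretch, and the marked CCTTGA lay outside that peak.

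These letters were counted in all 32851 RefSeq promoter windows of 300 bases (250 before and 50 after the start), on both strands. TCAAGGNCA was present in 1.62% of all windows, in 4.85% of the 330 windows under a chain peak, in 4.26% of the 1947 under another peak, and in 1.42% of the 30574 under none. The shorter TCAAGG, which TCAAGGNCA contains, was present in 14.4%, 20.0%, 18.3% and 14.1% of the same groups. AAGGTCA was present in 4.72% of all windows and in 10.9%, 12.4% and 4.16% of the 3 groups, and AAGGCCA in 6.20%, 6.06%, 5.96% and 6.22%. The 95% Wilson intervals of promoters under chain peaks and under other peaks overlapped for each of these motifs. Peaks outside promoters were not read, since no genome sequence was used here.

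Most chains were short. There were 966 chains of 3 peaks, 278 of 4, 113 of 5 and 50 of 6, while 47 held 7 or more and 7 held 10 or more. Their span had a median of 7131.5 bp and ran from 1391 to 35302 bp, of which peaks covered a median of 35.4%. The gaps inside chains, which the rule keeps at 5000 bp or less, had a median of 1688 bp. Over all neighbouring pairs on a chromosome, to which no limit applies, the median was 23041 bp. The limit of 5000 bp cut through a continuous range, with 462 neighbouring pairs in the 500 bp below it and 496 pairs in the 500 bp above it. The widest joined gap was 4999 bp and the narrowest not joined was 5003 bp, and a limit 500 bp wider would give 1585 chains with 5811 peaks.

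Each peak of the authors' list carries 1 of 4 class labels, L, eB, dB and nB, which the sources used here do not define, so they are used as labels only. Class dB was more common in chains, with 12.1% of their peaks against 9.94% of the other peaks (95% Wilson intervals 11.3% to 13.1% and 9.61% to 10.3%), and class nB likewise, with 8.73% against 6.06%. Class L made up 63.0% of chain peaks and 65.5% of the others, and class eB 16.1% and 18.5%. Chains held 20.2% of all nB peaks, 17.6% of dB peaks, 14.4% of L peaks and 13.2% of eB peaks. The intervals cover counting error only, and neighbouring peaks are not independent of each other. The share of dB was higher in chains on 17 of 20 chromosomes and that of nB on 16, whereas L was higher on 7 and eB on 5.

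The class mix also varied with the size of a chain. Class dB made up 9.83% of single peaks, 10.3% of peaks in runs of 2, 10.3% in chains of 3, 13.6% in chains of 4, 14.9% in chains of 5 or 6 and 15.5% in chains of 7 or more. Class L made up 65.4% of single peaks, 65.5% of peaks in chains of 3 and 58.7% in chains of 7 or more. Within a chain, 13.8% of inner peaks and 10.8% of the first and last peaks were dB, while 60.8% and 64.8% were L. Chains of all sizes were pooled here, and longer chains have relatively more inner peaks. The part of chain size in this contrast was not tested.

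**Figure D1:**
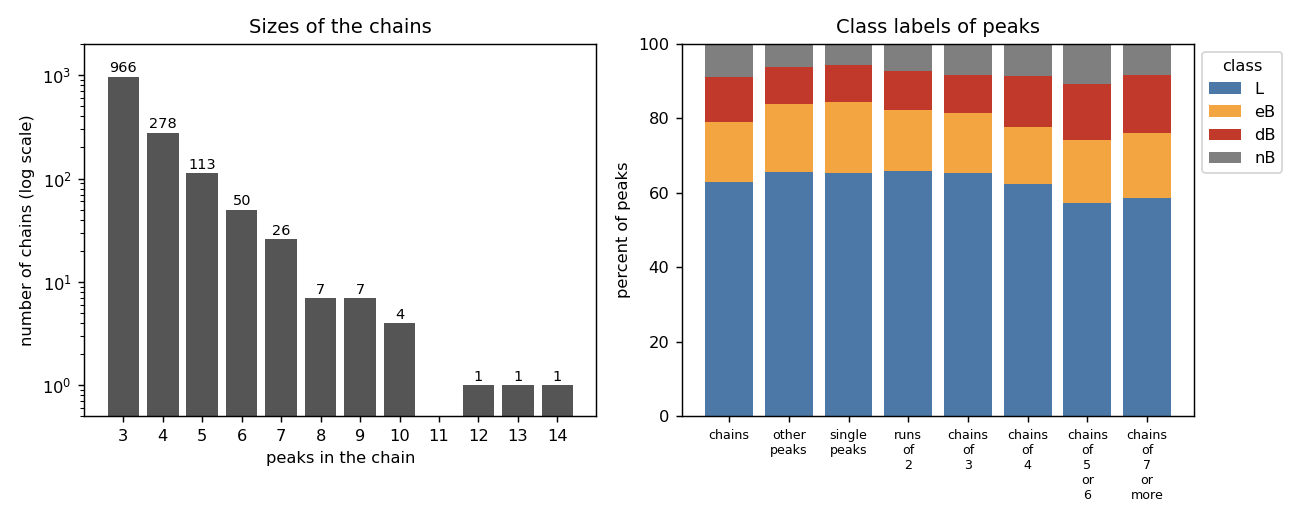
Left, number of chains (log scale) by the number of peaks in the chain. Right, percent of peaks with each class label for all chain peaks, all other peaks, single peaks, runs of 2 and chains by size. Chains of 3 are the most frequent (966), and the dB share is 9.83% in single peaks and 15.5% in chains of 7 or more.

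Peaks in chains were wider than the others, most clearly in class dB. The median width over all classes was 676 bp in chains and 608 bp outside them. For dB peaks it was 1109.5 bp against 868 bp, for eB 853.5 bp against 751 bp and for L 581 bp against 532 bp, while nB peaks were nearly alike at 667 bp and 663 bp. The part that peak width has in the class mix was not tested.

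Of the 1454 chains, 397 (27.3%) were of a single class. Only L peaks made up 385 chains (26.5%), 12 chains were of another single class, 722 held 2 classes, 308 held 3 and 27 held all 4. At least 1 dB peak was present in 499 chains (34.3%), and in 59.0% of the 210 chains of 5 or more peaks, which have more peaks in which to find one. Neighbouring peaks within chains had the same label in 49.1% of 3801 pairs, against 49.9% of the other 31445 neighbouring pairs on a chromosome. The class totals alone would give 44.6% for chains and 47.2% for the whole list. Among all neighbouring pairs, those at most 1000 bp apart had the same label in 54.3% of cases and pairs more than 1000 and up to 2500 bp apart in 50.5%. The share did not fall steadily with distance, since pairs over 100000 bp apart gave 51.0%. Among pairs without an L peak, the shares for these 3 ranges were 51.1%, 41.1% and 47.7%, and within chains they were 46.7% against 42.9% for the other pairs, the opposite order to that with L. The class totals without L would give 35.3% for chains and 39.2% for the whole list. Most chains thus held more than 1 class, but neighbours within chains shared a label more often than the class totals alone would give.

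Chain peaks lay nearer to gene starts than other peaks, at a median distance of 12819 bp against 20752 bp, but the share within 1000 bp of a start was close, at 11.4% and 10.3%. Similar shares lay inside a RefSeq gene span, 59.9% and 61.0%. Of the 1454 chains, 877 (60.3%) overlapped a protein-coding gene, 372 (25.6%) overlapped no RefSeq gene of any type, and 361 (24.8%) held a gene start. Chains were most frequent on chromosome 11, where 22.4% of peaks were in chains, and least on chromosome 14, with 9.08%. Whether a peak was exonic or intronic was not determined, since the annotation used holds gene spans only.

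The miR-290 to miR-295 chain spanned chr7:3191737-3227039 (mm10, as all peak coordinates here) with 14 peaks, of which 9 were L, 4 dB and 1 eB. It also reached into Nlrp12, a gene of the NLR family of cytosolic receptors, and into D7Ertd143e. The RNA table lists only the hairpins Mir290a and Mir294 of this locus, and neither was called. Mir294 averaged 0.628 TPM without and 0.445 TPM with auxin over the 7 times after release, with a difference of -0.17 on the log2(TPM + 1) scale, and was lower with auxin at 6 of 7 times. Mir290a averaged 0.223 TPM without and 0.195 TPM with auxin, with a difference of -0.03. Hairpin TPM in total RNA is not the level of the mature miRNAs, which were not measured, and the strand setting of the counting is not given in the sources used here, so overlapping genes at this locus cannot be told apart.

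**Figure D2:**
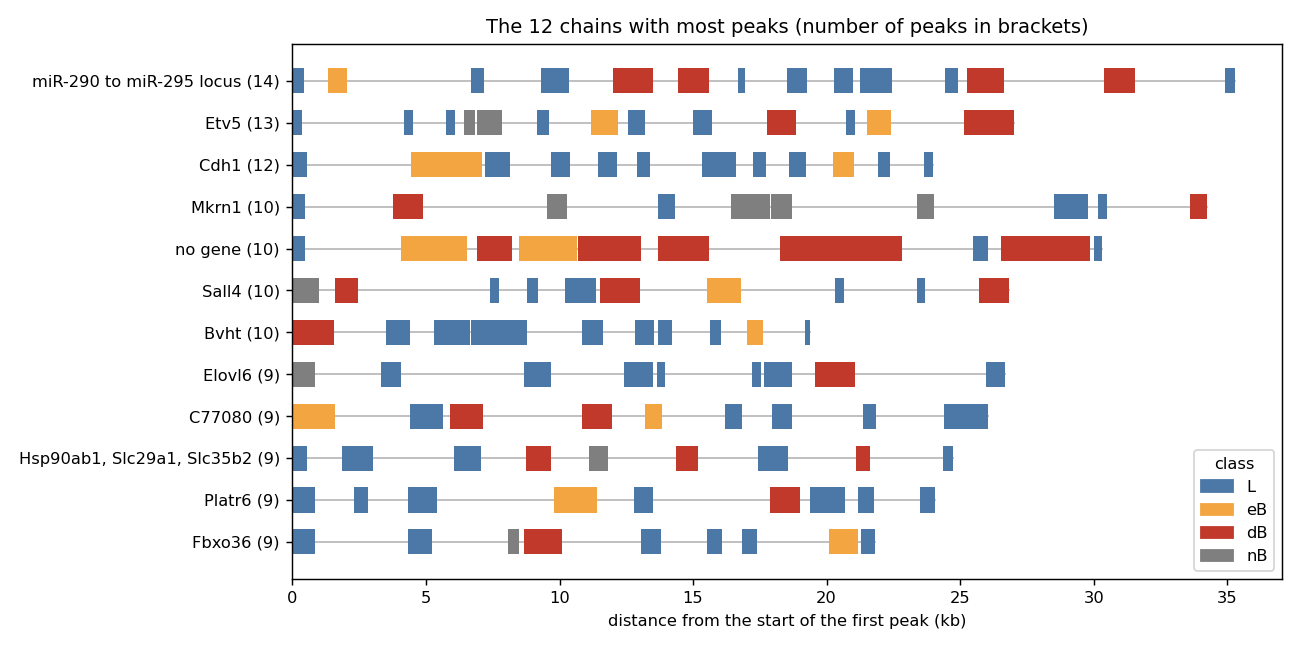
Peaks of the 12 chains with most peaks, drawn to scale as bars by distance in kb from the start of the first peak and coloured by class label, with the overlapped genes of the RNA table (or of RefSeq) as names. The longest chain reaches 35.3 kb, and the chain over no gene has 5 dB peaks of 10.

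Differences below are the log2(TPM + 1) of the group mean with auxin minus that without auxin, averaged over the 7 times after release where no stage is named, and a call is the label lower, higher or not responding that the authors' deposited table gives to a gene. The scale understates differences of genes with low TPM. Over the 8999 genes of at least 1 TPM in any group, the median difference after release was 0.02.

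The chain with the next most peaks lay within Etv5 (chr16:22391062-22418087, 13 peaks, of which 7 L, 2 eB, 2 dB and 2 nB), an ETS-family transcription factor that responds to FGF signalling. Without auxin, Etv5 stood at 11.2 TPM in cycling and 7.38 TPM in arrested cells, and at 7.57, 6.74, 6.87, 10.4, 14.9, 14.3 and 12.7 TPM over the 7 times after release. With auxin, its group means were 8.72 TPM, 6.75 TPM and then 6.55, 6.57, 6.72, 8.78, 11.5, 11.8 and 9.94 TPM. The group mean with auxin was below that without at all 7 times after release, with an average difference of -0.20, and the gap was wider from 50 minutes on than at 30 and 40 minutes. The authors' deposited table called Etv5 lower.

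Cdh1 encodes E-cadherin, the adhesion molecule that holds ES cell colonies together. Its main chain (chr8:106599377-106623366) held 12 peaks, 10 L and 2 eB with no dB, of which 11 were inside the gene span, and a smaller chain lay further into the gene. In the arm without auxin, Cdh1 stood at 7.22 TPM in cycling and 3.87 TPM in arrested cells, and at 4.05, 3.91, 5.28, 10.1, 16.6, 12.5 and 8.29 TPM over the 7 times after release. The group means with auxin were 6.46 TPM, 3.71 TPM and then 3.71, 3.93, 5.17, 9.34, 13.4, 9.78 and 6.65 TPM. The arms were close up to 40 minutes and apart from 60 minutes on, with an average difference of -0.16, and the authors' deposited table called the gene lower.

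Mkrn1, a RING-type ubiquitin ligase, lay under the start of a chain of 10 peaks (chr6:39416770-39451015) with 4 L, 4 nB and 2 dB. Only 2 of the 10, 1 L and 1 dB, were inside the gene span, and all 4 nB peaks lay outside it. A smaller chain of 4 peaks (chr6:39393266-39405702) lay over the other end of the gene. Mkrn1 averaged 15.1 TPM without and 13.8 TPM with auxin after release, was lower with auxin at 6 of 7 times by -0.11 on average, and was called lower in the authors' deposited table. Sall4, a zinc-finger factor of the ES cell network, lay under a chain of 10 peaks (chr2:168753694-168780515), 6 of them inside its span. Group means of Sall4 without auxin stood at 5.03 TPM in cycling and 6.36 TPM in arrested cells, and at 6.25, 6.74, 7.85, 10.3, 11.6, 8.41 and 7.40 TPM over the 7 times after release. In the auxin arm the values were 4.88 TPM, 6.54 TPM and then 6.43, 6.50, 6.88, 9.60, 10.9, 8.41 and 6.34 TPM. Its difference was small, -0.08 on average, and the arms were equal to 3 digits at 90 minutes, although the authors' deposited table called it lower. Bvht, a long non-coding RNA known from the heart lineage, lay under the end of a chain of 10 peaks on chromosome 18 and was called lower, with 2.62 TPM without and 2.35 TPM with auxin after release.

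Elovl6, an enzyme that elongates long-chain fatty acids, had 9 peaks from its promoter into the gene (chr3:129531600-129558268), 7 of them L, 1 dB and 1 nB, and the nB peak covered the promoter printed above. Without auxin, Elovl6 stood at 7.32 TPM in cycling and 3.31 TPM in arrested cells, and at 3.35, 2.92, 2.90, 4.19, 6.84, 10.5 and 9.77 TPM over the 7 times after release. With auxin, its group means were 5.43 TPM, 2.74 TPM and then 2.64, 2.76, 2.86, 3.42, 5.15, 8.73 and 8.15 TPM. It was lower with auxin in all 9 stages, by -0.20 on average after release. C77080 likewise had 9 peaks across its promoter and body (chr4:129226255-129252285), averaged 2.08 TPM without and 1.67 TPM with auxin after release, and was lower at all 7 times. The authors' deposited table called both genes lower.

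A chain of 9 peaks on chromosome 17 (chr17:45567234-45591955) ran over 3 genes of the RNA table that did not share a call. Slc29a1 encodes a nucleoside transporter of the plasma membrane, Hsp90ab1 an abundant chaperone, and Slc35b2 the transporter that brings the sulfate donor into the Golgi. In the arm without auxin, Slc29a1 stood at 4.91 TPM in cycling and 2.92 TPM in arrested cells, and at 2.96, 2.91, 2.99, 3.80, 5.24, 6.73 and 6.42 TPM over the 7 times after release. The group means with auxin were 3.16 TPM, 2.44 TPM and then 2.52, 2.30, 2.32, 3.21, 4.20, 5.26 and 4.36 TPM. Slc29a1 was lower with auxin in all 9 stages, by -0.27 on average after release, and was the one the authors' deposited table called lower. Hsp90ab1 averaged 19.2 TPM without and 19.0 TPM with auxin and Slc35b2 3.93 TPM without and 3.90 TPM with auxin after release, and neither was called. Of the 9 peaks, 3 lay inside Slc29a1, 2 inside Hsp90ab1 and 1 inside Slc35b2.

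Fbxo36, an F-box gene, held 2 chains with 12 of its 13 peaks and was called lower at 0.520 TPM without and 0.465 TPM with auxin. Platr6, a long non-coding RNA of ES cells, lay under a chain of 9 peaks on chromosome 10 and is not in the RNA table. The largest chain over no RefSeq gene had 10 peaks on chromosome 14 (chr14:60925845-60956152), with 5 dB, 2 eB and 3 L, and its peaks covered 19474 of 30307 bp. Further chains of 8 peaks lay over Tet1, a dioxygenase that oxidises methylated cytosine, over the kinase gene Pim1, and over Macf1 and Lasp1, which encode cytoskeletal proteins. The authors' deposited table called Tet1 (-0.17), Pim1 (-0.23) and Lasp1 (-0.10) lower and did not call Macf1 (-0.01). These 4 genes were named after their values had been seen.

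**Figure D3:**
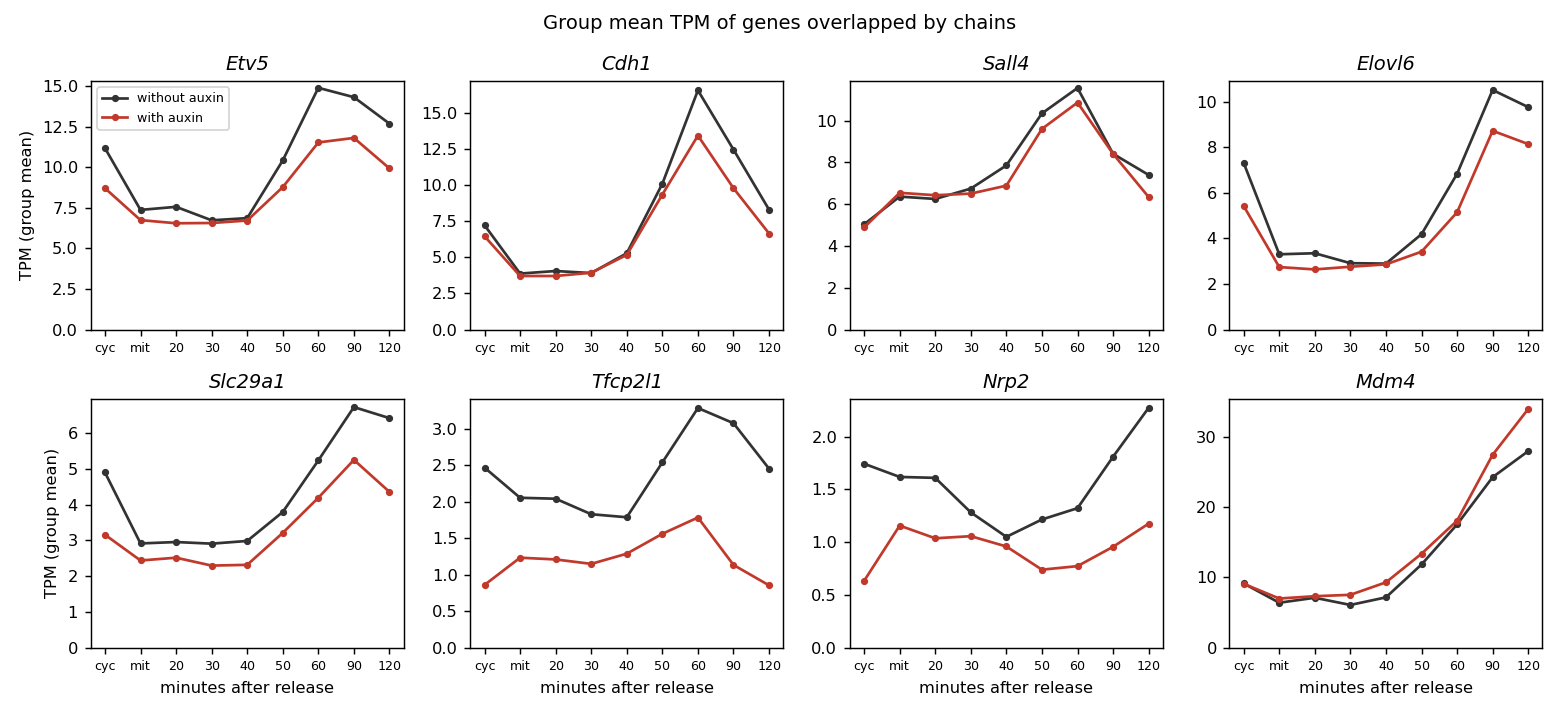
Group mean TPM (linear axis from 0) of 8 genes overlapped by chains, in cycling cells, in mitotic arrest and 20 to 120 minutes after release, without (dark) and with (red) auxin. Each point is 1 group mean with no error. Tfcp2l1 lies below the arm without auxin at every stage, Mdm4 lies above it at every time after release, and Cdh1 is close in both arms up to 40 minutes.

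By the number of peaks they hold in chains, the leading genes were Gse1 with 18, Cdh1 with 14, Etv5 and Grik3 with 13 each, and Sgk1 and Fbxo36 with 12 each. Msi2, Tns3 and Arhgap26 also held 12 each, and the authors' deposited table called Msi2 (-0.17) and Tns3 (-0.12) lower and did not call Arhgap26 (0.03). Gse1 and the stress-responsive kinase gene Sgk1 were crossed by 4 chains each. The authors' deposited table called Gse1 lower, although its arms were close, at 0.989 TPM without and 0.918 TPM with auxin after release and lower at only 3 of 7 times. Sgk1 was called lower, with 0.733 TPM without and 0.592 TPM with auxin and lower at all 7 times. Grik3, a kainate receptor subunit, was not called and averaged 3.24 TPM without and 3.26 TPM with auxin. Many peaks in chains thus did not go with a large difference in every gene.

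Over all chains, 868 of the 13952 genes of the RNA table that matched RefSeq (6.22%) were overlapped by a chain. The authors' deposited table called 279 of them lower, which is 32.1% (95% Wilson interval 29.1% to 35.3%), where 7.26% of all genes of the table were called lower. It called 40 of them higher, which is 4.61% (3.40% to 6.21%), where 6.74% of all genes were called higher. Of 5991 genes with peaks but no chain, 8.30% were called lower and 7.08% higher, and of 7093 genes with no peak, 3.34% and 6.71%. Genes overlapped by a chain were thus called lower at a share several times that of all genes, and higher at a share somewhat below it. Counted by chain, 308 of the 837 chains that overlapped a gene of the table lay over one called lower and 46 over one called higher. Since 87 chains lay over more than 1 gene, the genes are not independent counts.

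The share called lower was least for genes under chains of 3 peaks and greatest under chains of 7 or more, but did not rise at each step. It was 25.5% of 538 genes whose largest chain had 3 peaks, 42.9% of 182 genes with 4, 37.9% of 103 with 5 or 6, and 55.6% of 45 with 7 or more (interval 41.2% to 69.1%). The intervals of the middle groups overlapped, and that of chains of 3 (22.0% to 29.3%) lay below those of chains of 4 and of 7 or more. RNA level rose over the same 4 groups, with medians of 1.18, 1.51, 1.77 and 2.39 TPM. Its part in the calls was not tested. Genes whose chain held a dB peak were called lower in 40.9% of 298 cases and the others in 27.5% of 570. With the size held at 3 peaks the shares were 33.1% with dB and 22.9% without, with 4 peaks 47.9% and 39.6%, and with 5 or more 47.3% and 36.8%. Within each size these intervals overlapped. Genes whose own start lay in a chain were called lower in 36.5% of 277 cases, against 28.9% of 412 whose listed start lay outside it. These intervals overlapped too (31.0% to 42.3% and 24.7% to 33.4%). The genes with their start inside had more RNA (median 1.99 TPM against 1.05 TPM) and were shorter (17928 bp against 64360.5 bp). Chain genes with no listed start are in neither group.

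**Figure D4:**
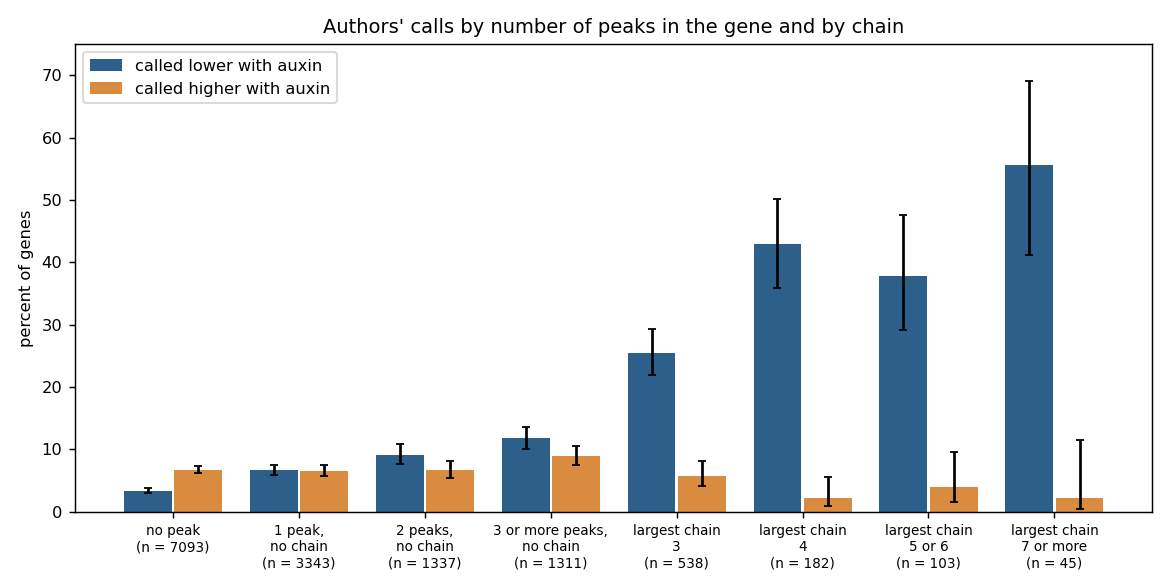
Percent of genes that the authors' deposited table calls lower (blue) or higher (orange) with auxin, by the number of peaks in the gene span for genes without a chain and by the largest chain otherwise, with 95% Wilson intervals as bars and the number of genes below. The share called lower is 3.34% with no peak, 11.7% with 3 or more peaks outside chains and 55.6% with a chain of 7 or more, while the share called higher is between 2.20% and 8.85% in all groups.

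At the same number of peaks inside the gene span, genes without a chain were called lower less often. Chain peaks outside the span were not counted, so chain genes can have more peaks at the locus. Slc29a1, for example, holds 3 of the 9 peaks of its chain. The part of such extra peaks in the calls was not tested. Among genes with exactly 3 peaks in their span, 31.6% of 155 overlapped by a chain were called lower, against 11.5% of 548 with no chain. The shares were 30.8% and 12.3% with 4 peaks, 33.3% and 10.4% with 5 or 6, and 40.1% and 13.4% with 7 or more. Genes without a chain were longer at the same number of peaks (median span 83859 bp against 26904 bp with 3 peaks) and had less RNA (median 0.746 TPM against 1.53 TPM). When genes were split by span into 5 groups of equal size, 23.8% to 37.3% of chain genes were called lower in each group, against 6.14% to 11.1% of genes with peaks but no chain. When they were split by mean TPM in the same way, the upper 4 groups gave 29.0% to 42.9% against 8.11% to 11.6%, and the lowest group 3.33% against 1.25%. Gene length and RNA level therefore differed between chain genes and the others. Chain genes had the higher share called lower in each group of either split. In the lowest TPM group this rests on only 4 of 120 chain genes against 16 of 1278 genes.

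Of the chain genes, 603 reached at least 1 TPM in some group, and 238 of these (39.5%) were called lower, where the share over all genes at that level was 9.46%. Their median difference after release was -0.04, with quartiles of -0.11 and 0.01. The mean difference was below 0 in 417 of them (69.2%), against 39.2% of all matched genes at that level and 39.3% of those with peaks but no chain. At all 7 times after release, 148 chain genes (24.5%) were lower with auxin, where 5.33% of all genes above that level were. In plain TPM, averaged over the 7 times in each arm, 20 of the 603 genes were more than 1.5-fold lower with auxin and 0 were more than 1.5-fold higher. This was not counted over all genes, so the 20 have no background. By the mean difference in log2(TPM + 1), 2 of the 603 and 6 of all 8994 matched genes at that level were 1.5-fold lower, and 0 of either were 1.5-fold higher. Chain genes that were not called had a median of -0.01, against 0.02 for genes without a chain that were not called.

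Stage by stage, the median difference of chain genes lay below that of all genes in each of the 9 stages. It was -0.10 in cycling cells (all genes -0.04) and -0.04 in mitotic arrest (0.01). After release it was -0.06 at 20 minutes (-0.03), 0.01 at 30 (0.05), 0.01 at 40 (0.08), -0.06 at 50 (0.00), -0.12 at 60 (-0.06), -0.04 at 90 (0.03) and -0.04 at 120 minutes (0.04). The median of all genes itself moved between stages, and the distance between chain genes and all genes was present in arrested cells as well as after release. The share of chain genes below 0 was 90.5% at 60 minutes, where it was 80.5% of all genes, and 48.3% at 40 minutes, where it was 28.3%. The stages share neither libraries nor controls with each other, but all come from the same line.

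**Figure D5:**
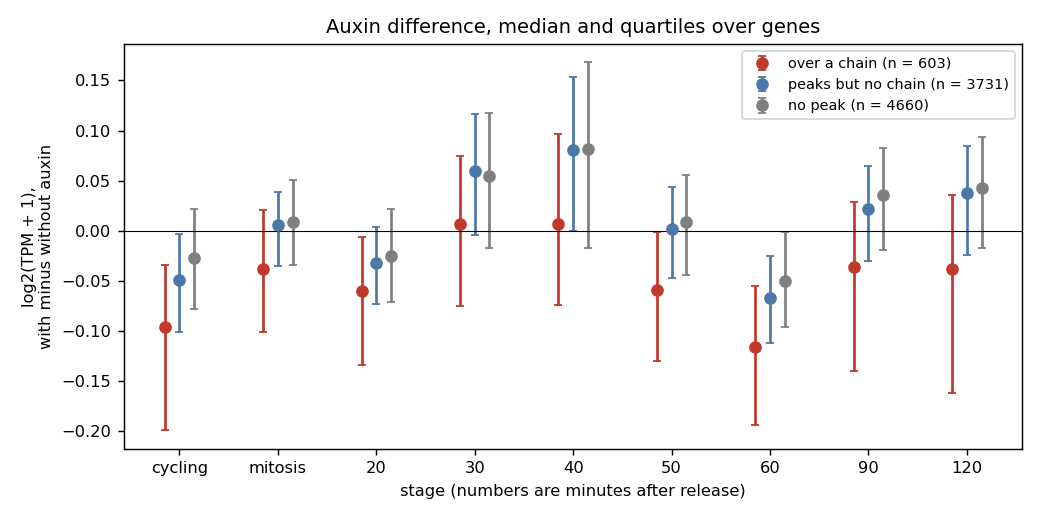
Difference in log2(TPM + 1), with minus without auxin, at each stage for genes of at least 1 TPM that are overlapped by a chain (red), hold peaks but no chain (blue) or hold no peak (grey). Points are medians over genes and bars run between quartiles, which describe genes and not replicates. The red median is the lowest of the 3 in all 9 stages, from -0.12 at 60 minutes to 0.01 at 30 and 40 minutes.

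Without auxin, chain genes stood lower relative to mitotic arrest at 60 minutes than all genes did. Their median log2(TPM + 1) at 60 minutes was 0.75 above mitotic arrest, where that of all genes was 1.01 above, and after quantile normalization of the columns the values were -0.28 for chain genes and 0.02 for all genes. The rise of chain genes above mitosis therefore depends on the scaling, while they stood below all genes under both of these scalings. Their highest level among the 7 times fell at 60 minutes in 35.3% of cases (all genes 45.6%), at 90 minutes in 28.5% (23.6%) and at 120 minutes in 27.9% (22.8%).

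Markers of ES cells were often under chains. All but 2 of the 33 listed ES cell genes in the table reached 1 TPM in some group, whereas 9 of the 10 primitive endoderm genes did not. The other lists lay between, with 4 of 13 formative and primed, 4 of 7 trophectoderm, 4 of 7 germ layer and 2 of 4 fibroblast genes below 1 TPM. Markers of other cell types were thus not all silent. Of the 33, 13 (39.4%) were overlapped by a chain, where 6.22% of all matched genes were, and the authors' deposited table called 12 of these 13 lower, all except Dppa2. Of the 20 listed genes without a chain, 15 were called lower and 1 higher, so calls were frequent in this list with or without a chain. The list was written with results of these cells known, and its direction is no independent support. For comparison, chains overlapped 2 of 13 formative and primed genes (Etv4 and Etv5, both called lower), 7 of 23 genes of LIF and FGF signalling (4 called lower), and 1 of 10 primitive endoderm genes (Lama1, called lower). None of 7 trophectoderm, 7 germ layer and 4 fibroblast genes was overlapped by a chain.

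Tfcp2l1, a transcription factor of naive ES cells, held 2 chains, the larger with 5 peaks. Group means of Tfcp2l1 without auxin stood at 2.47 TPM in cycling and 2.05 TPM in arrested cells, and at 2.04, 1.83, 1.79, 2.54, 3.28, 3.08 and 2.45 TPM over the 7 times after release. In the auxin arm the values were 0.860 TPM, 1.23 TPM and then 1.21, 1.15, 1.29, 1.56, 1.78, 1.13 and 0.854 TPM. It was lower with auxin in all 9 stages and its 2 arms did not cross, with an average difference of -0.58 after release. Jam2, which encodes a junctional adhesion molecule, lay under a chain of 5 peaks, 2 of them inside the gene span. Without auxin, Jam2 stood at 7.19 TPM in cycling and 3.57 TPM in arrested cells, and at 3.55, 2.83, 2.38, 3.14, 4.73, 7.07 and 7.57 TPM over the 7 times after release. With auxin, its group means were 2.68 TPM, 2.03 TPM and then 1.83, 1.78, 1.86, 1.79, 2.34, 2.80 and 2.63 TPM. Its difference of -0.72 was the most negative of all chain genes of at least 1 TPM.

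Other ES cell genes under chains had smaller differences. Dppa5a, an RNA-binding protein of ES cells, lay within the span of a chain of 6 peaks, none of them inside the gene. It averaged 19.1 TPM without and 12.3 TPM with auxin after release, and in mitotic arrest its arms were close, at 5.90 and 6.10 TPM. Nr0b1, an orphan receptor of the X chromosome, averaged 1.08 TPM without and 0.542 TPM with auxin, and Fgf4, the growth factor that drives ERK signalling in ES cells, 0.542 TPM without and 0.351 TPM with auxin. Pou5f1, which encodes Oct4, averaged 12.8 TPM without and 11.2 TPM with auxin, Mycn 10.3 TPM without and 8.97 TPM with auxin, Tet2 4.53 TPM without and 3.89 TPM with auxin and Trim28, a co-repressor, 3.86 TPM without and 3.60 TPM with auxin. The genes of the degraded receptors were themselves under chains of 4 peaks. Esrrb RNA averaged 4.01 TPM without and 3.65 TPM with auxin and Nr5a2 RNA 3.92 TPM without and 3.58 TPM with auxin, and both were called lower in the authors' deposited table. Since degradation acts on the protein, these RNA values do not check it.

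In the FGF pathway, chains lay over the ligand gene Fgf4, the receptor gene Fgfr2, the feedback inhibitors Spry2, Dusp4 and Dusp6, and the targets Etv4 and Etv5. The authors' deposited table called Fgf4, Dusp4, Etv4 and Etv5 lower and did not call Fgfr2, Spry2 and Dusp6. Etv4 averaged 2.33 TPM without and 1.95 TPM with auxin after release and Dusp4, a phosphatase that acts on ERK, 1.89 TPM without and 1.75 TPM with auxin. Spry2 averaged 9.71 TPM without and 9.08 TPM with auxin and Dusp6 3.59 TPM without and 3.72 TPM with auxin. Fgfr2 stayed at low levels, with 0.209 TPM without and 0.221 TPM with auxin.

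Beside Jam2, Tfcp2l1 and Dppa5a, the chain genes of at least 1 TPM called lower with the most negative differences were the long non-coding RNA Gm38509 (-0.68), the basement membrane gene Nid2 (-0.48), Zfp57, a zinc-finger protein that guards imprints (-0.45), Igfbp2, which binds insulin-like growth factors (-0.44), and the ephrin receptor gene Epha4 (-0.44). All 5 were lower with auxin at all 7 times after release and also in cycling and arrested cells. Gm38509 averaged 4.31 TPM without and 2.32 TPM with auxin, and Zfp57 9.76 TPM without and 6.50 TPM with auxin. Several lay under short chains, since the chains at Zfp57 and Igfbp2 had 3 peaks each and that at Nid2 had 4. Of these peaks, 1 lay inside the span of Zfp57, 2 inside Igfbp2 and 1 inside Nid2.

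The chain genes called higher had smaller differences. Mdm4, an inhibitor of p53, lay under a chain of 5 peaks. In the arm without auxin, Mdm4 stood at 9.13 TPM in cycling and 6.39 TPM in arrested cells, and at 7.10, 6.08, 7.15, 11.8, 17.5, 24.2 and 27.9 TPM over the 7 times after release. The group means with auxin were 9.08 TPM, 6.99 TPM and then 7.32, 7.51, 9.29, 13.4, 18.1, 27.4 and 33.9 TPM. Its average difference was 0.18, and in cycling cells the arms were close. Neat1, the long non-coding RNA that builds paraspeckles, lay under a chain of 7 peaks and averaged 14.0 TPM without and 15.6 TPM with auxin after release, a difference of 0.17. The others named were Sulf1, an extracellular sulfatase (0.18), Gclc, of glutathione synthesis (0.16), the histone demethylase gene Kdm4c (0.13), the kinase gene Hunk (0.12), the mucin gene Muc1 (0.12), and Tcf7l1, a repressor of the Wnt pathway (0.11). Over the 30 chain genes of at least 1 TPM called higher the median difference was 0.08, and over the 238 called lower it was -0.13.

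Some chain genes differed between arms without a call. Nrp2, a co-receptor for semaphorins under a chain of 3 peaks, had the most negative difference among those not called. Group means of Nrp2 without auxin stood at 1.74 TPM in cycling and 1.62 TPM in arrested cells, and at 1.61, 1.28, 1.05, 1.21, 1.32, 1.81 and 2.27 TPM over the 7 times after release. In the auxin arm the values were 0.633 TPM, 1.16 TPM and then 1.04, 1.06, 0.958, 0.739, 0.772, 0.956 and 1.17 TPM. It was lower with auxin in all 9 stages, by -0.35 on average after release, yet the authors' deposited table lists it as not responding. Midn, a gene under a chain of 5 peaks across its promoter, averaged 6.72 TPM without and 5.79 TPM with auxin and was lower at 6 of 7 times, and Platr9, a long non-coding RNA, 0.870 TPM without and 0.664 TPM with auxin. The spread between libraries behind these calls was not analysed here.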

How the data were processed

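The 12 ChIP-seq libraries of wild-type cells gave 1 list of Nr5a2 peaks with a class label per peak, and the 54 RNA-seq libraries gave 1 table of group means. Per the submitters' processing notes, which name tools without roles, STAR, RSEM, DESeq2, Bowtie2, MACS2 and the build mm10 were used (these notes give no versions). The authors deposited TPM, apparently as the mean of the 3 libraries of each group, with totals of 17155 to 49059 TPM per column over the genes listed, and a call per gene. Whether RNA values count spliced or unspliced reads, and how the peak classes were set, is not stated by these sources.

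From these files, peaks were chained by position (largest gap 5000 bp, at least 3 peaks). Genes were RefSeq spans (GRCm38.p6) overlapping the chain span by at least 1 bp, and 13952 of 13957 gene names of the RNA table matched. Differences are of log2(TPM + 1) with a pseudocount of 1, for genes of at least 1 TPM in any group. With group means only, no model or test was fitted. Shares have Wilson 95% intervals, which cover counting error only. Computation used Python 3.11.15, numpy 2.4.6 and pandas 2.3.3, and the functions for chains, overlaps and differences were tested on simulated data.

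Named genes were those under the 12 largest chains, chain genes of the ES cell, formative and signalling lists, the 8 chain genes called lower, the 8 called higher and the 4 not called with the largest differences, and 6 with most chain peaks (3 others tied for the last places). Chains, members and lists were chosen with earlier results of these data known. Alternatives to the gap, chain size, gene rule, pseudocount, filter and scaling were tried.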

Additional observations from a re-analysis of the deposited data

How the results depend on the processing

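No paired analysis was possible because the RNA table holds group means and no single libraries, so no replicate could be left out either. With a largest gap of 2500 bp there were 755 chains with 2548 peaks over 416 genes, with 10000 bp 2425 chains with 9744 peaks over 1747 genes, and with at least 4 peaks 488 chains with 2357 peaks over 330 genes. Chain peaks minus other peaks gave, in percentage points, -2.48 for L and 2.20 for dB, which became -5.27 and 3.65 with 2500 bp and -5.51 and 4.41 with at least 4 peaks; eB and nB stayed within their intervals, as did every class with 10000 bp. Pairs of the same label made up 46.0% within chains of at least 4 peaks. The share called lower was 25.2% with 10000 bp, 43.0% with at least 4 peaks, 26.8% over the 1321 genes within 10000 bp of a chain and 39.5% for genes of at least 1 TPM, while the 515 genes that hold at least 3 peaks of a chain gave 32.8%. The share called higher was 6.25% with 2500 bp, 2.73% with at least 4 peaks and 6.80% for genes holding at least 3 peaks. The median difference after release was -0.024 with 10000 bp, -0.063 with at least 4 peaks, -0.055 with a pseudocount of 0.1, -0.055 with each stage centred, -0.024 with no filter, -0.049 without 30 minutes and -0.029 without 60 minutes; it was below the median of all genes of at least 1 TPM under the pseudocount, the centring and each left-out time. The level at 60 minutes relative to mitosis was 1.03 with a pseudocount of 0.1, 0.43 with no filter and -0.28 with quantile normalization, under which it changed sign. Of 50 named genes, 15 moved by over 1.5 times with a pseudocount of 0.1, 8 with centring and 4 to 8 with a time left out, and no called one changed sign. The added alternatives for label pairs and for the share called higher were chosen after seeing the data. Depth per library is unknown, so low TPM values have no stated precision.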

Other observations

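Beside the miR-290 to miR-295 locus, 19 other chains covered a miRNA hairpin. Mir129-1, Mir7653 and Mir1191b lay in chains of 7 peaks, and Mirlet7e and Mir125a, which are neighbours on chromosome 17, shared a chain of 3 peaks. Mir135b and Mir92b each lay in another chain of 3 peaks. None of these hairpins is in the RNA table used here.

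Among chains that overlapped no RefSeq gene was one of 7 peaks on chromosome 5 (chr5:135934677-135958351) with 4 nB peaks and 1 each of L, eB and dB, 36 bp from Ywhag, and one of 7 peaks on chromosome 4 (chr4:141557830-141575489) with 4 eB peaks, 573 bp from Fblim1. At the metallothionein gene Mt1, all 7 peaks of a chain were L, and at Tmem51 none of 7 was L, with 3 dB, 2 eB and 2 nB. Tmem51 averaged 1.82 TPM without and 1.53 TPM with auxin after release and was called lower in the authors' deposited table. These chains were named after their values had been seen.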
